A study of Mus musculus with 6 samples.

Results

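Dlx1, Dlx2, Dlx5, Dlx6, Gsx2, Sp9, Isl1, Six3 and Ebf1 are transcription factor genes of the ventral forebrain, in particular of the lateral ganglionic eminence (LGE), the embryonic source of striatal neurons and olfactory bulb interneurons. They were taken from the count table by gene symbol, each symbol matched 1 gene ID, and together they make up 9 of the 52636 genes listed. RNA came from dissociated forebrains of E12.5 mouse embryos, from which cells carrying Prominin1 on their surface had been sorted, and the labels call these cells radial glia of the cortex, the progenitors that line the ventricle. The libraries labelled SmadNes came from embryos with Smad1wt/fl, Smad5wt/fl and Nestin:Cre+/0, so that Cre recombinase, driven by the Nestin promoter of neural progenitors, could act on 1 floxed copy of each gene. Control littermates were Smad1wt/fl, Smad5wt/fl and Nestin:Cre0/0, and thus carried the same floxed copies without Cre, on the same mixed CD1, 129/ola and C57BL6 background. Each genotype had 3 pools of cells, and both groups use the pool names SF3, SF4 and SF5_6. The pools were the pairs of best RNA integrity among those collected, per the labels' protocols, which do not give the number of embryos behind each. Total expected counts lay between 33731026 and 38684963 in SmadNes libraries and between 32997423 and 40744672 in control libraries.

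In the developing ventral forebrain Gsx2 acts in dividing LGE progenitors, upstream of the Dlx genes. Dlx1 and Dlx2, followed by Dlx5 and Dlx6, are homeodomain factors that promote the GABAergic fate and the migration of the cells, and the zinc finger factor Sp9 acts with them in striatal and interneuron lineages. Isl1, a LIM homeodomain factor, and Ebf1, a helix-loop-helix factor, mark differentiating striatal projection neurons, and Six3 is used in the anterior forebrain and eye field as well as in the LGE. Isl1 is also known from hypothalamic and sensory neurons, and Ebf1 from cells of the dorsal telencephalic surface. Transcripts of these genes in a cortical sort can therefore come from several places.

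The Dlx genes lie as pairs that face each other. On GRCm38, Dlx1 (ENSMUSG00000041911.3, chromosome 2, 71528113 to 71533981, plus strand) is followed after 9426 bases by Dlx2 (ENSMUSG00000023391.8, 71543408 to 71546754, minus strand). Sp9 (73271925 to 73284706, plus strand) lies 1725170 bases further along the same chromosome. On chromosome 6, Dlx6 (6863334 to 6868568, plus strand) and Dlx5 (6877805 to 6882085, minus strand) are 9236 bases apart. Gsx2 lies on chromosome 5 (75075601 to 75077893), Ebf1 on chromosome 11 (44617317 to 45008091), Isl1 on chromosome 13 (116298281 to 116309689) and Six3 on chromosome 17 (85613608 to 85629302). The long noncoding genes Dlx1as and Dlx6os1 lie on the strand opposite to Dlx1 and Dlx6 and span the whole of them. The counts were made with a setting for stranded libraries, per the labels' protocols.

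RefSeq start-site sequences (GRCm38.p6, 250 bases before and 50 after the annotated start) were found for 7 of the 9 members. Those of Dlx1 (chr2:71529195-71529494, plus strand), Dlx2 (chr2:71546705-71547004, minus strand) and Sp9 (chr2:73271676-73271975, plus strand) are shown because these genes were low together in the SmadNes SF3 and SF4 libraries, and that of Isl1 (chr13:116309639-116309938, minus strand) because its SmadNes to control ratio was more alike in the 3 pairs. Capitals mark GGCGCC, a GC-rich element known for binding Smad1 and Smad5, and CCAAT, the box bound by NF-Y, each searched on both strands, where they did not overlap.
Dlx1: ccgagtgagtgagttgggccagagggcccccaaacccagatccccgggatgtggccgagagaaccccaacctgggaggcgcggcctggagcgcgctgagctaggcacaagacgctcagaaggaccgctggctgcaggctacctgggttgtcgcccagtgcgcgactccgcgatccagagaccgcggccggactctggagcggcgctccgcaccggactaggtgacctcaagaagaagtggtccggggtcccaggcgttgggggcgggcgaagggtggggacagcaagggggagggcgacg
Dlx2: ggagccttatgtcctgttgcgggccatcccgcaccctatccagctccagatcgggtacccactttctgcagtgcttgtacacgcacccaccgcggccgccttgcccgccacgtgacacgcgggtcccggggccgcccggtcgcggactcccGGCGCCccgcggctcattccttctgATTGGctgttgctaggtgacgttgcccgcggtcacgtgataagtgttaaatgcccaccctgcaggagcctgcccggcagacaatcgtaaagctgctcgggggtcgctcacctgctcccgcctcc
Sp9: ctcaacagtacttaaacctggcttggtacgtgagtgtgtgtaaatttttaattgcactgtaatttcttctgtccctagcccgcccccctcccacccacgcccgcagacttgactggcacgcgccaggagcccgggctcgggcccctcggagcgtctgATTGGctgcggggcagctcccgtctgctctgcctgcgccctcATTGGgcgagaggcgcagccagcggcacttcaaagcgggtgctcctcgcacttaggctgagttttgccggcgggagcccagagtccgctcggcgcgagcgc
Isl1: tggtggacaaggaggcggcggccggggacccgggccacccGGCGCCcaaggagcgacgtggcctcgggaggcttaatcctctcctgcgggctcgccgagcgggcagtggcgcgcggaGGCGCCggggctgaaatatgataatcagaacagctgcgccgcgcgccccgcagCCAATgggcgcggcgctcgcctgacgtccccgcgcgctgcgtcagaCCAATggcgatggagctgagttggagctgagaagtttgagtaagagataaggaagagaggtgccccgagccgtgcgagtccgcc
GGCGCC occurred 1 time in the Dlx2 window and 2 times in that of Isl1, and not in the windows of Dlx1, Sp9, Gsx2, Six3 and Ebf1. Of 32851 RefSeq windows of this length, 11.9% held it. CCAAT occurred in the windows of Dlx2 (1), Sp9 (2), Isl1 (2) and Six3 (3), against 37.4% of all windows. TAATTA, the core that Dlx and other homeodomain proteins bind, was in none of the 8 windows of the members, 2 of which belong to Ebf1, and in 5.29% of all windows. GC content was 69.3% for Dlx1, 66.3% for Dlx2, 63.7% for Sp9, 69.0% for Isl1, 63.0% for Gsx2, 50% for Six3 and 36.7% and 53.0% for the windows of Ebf1, against a median of 52.7%. These matches describe letters in the windows and show no binding.

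The targeted genes were checked first. Smad5 stood at 388, 411 and 373 CPM (counts scaled to a common library size) in SmadNes SF3, SF4 and SF5_6, against 289.6, 299.9 and 287 CPM in the controls, so the groups did not overlap. EdgeR's test gave a log2 difference, SmadNes minus control, of 0.42 (standard error 0.05, adjusted p = 0.965), and with the pool name as a block Smad5 passed the threshold (adjusted p = 0.00757). Smad1 stood at 86.9, 92.9 and 85.7 CPM in SmadNes and at 72.7, 77.8 and 76.1 CPM in controls. Both were higher in the libraries labelled SmadNes, the opposite of what a loss of transcript from 1 copy would give. A whole-gene count also covers exons outside a floxed part, so it does not check the deletion, and every direction here rests on the labels. Prom1, which encodes the sort marker, averaged 124 ± 12.0 CPM in SmadNes and 119.5 ± 11.8 CPM in control libraries (SD, n = 3 each). All 9 listed radial glia genes were measured, and so were all 9 general neuronal genes, with a summed level of 3914 to 4328 CPM in SmadNes and 3950 to 4829 CPM in controls, so the libraries held neuronal as well as progenitor transcripts.

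Dlx1 and Dlx2 were the most abundant members per length of merged exons in controls, and every member was highest in the SF5_6 pools of both genotypes. Dlx1 had 6.31, 4.64 and 41.4 CPM in SmadNes SF3, SF4 and SF5_6, against 16.9, 7.52 and 53.8 CPM in the control libraries of these names. Each SmadNes library was below the control of its own name, while the 2 SF5_6 libraries stood above the remaining libraries whatever the genotype. Dlx2 had 4.55, 3.73 and 30.4 CPM in SmadNes, against 15.2, 5.58 and 45.2 CPM in controls. The order of the 6 libraries was that of Dlx1. Because the pools differ so much, the 2 groups overlapped for each of the 9 members.

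The second Dlx pair had the same pattern at lower levels. Dlx5 had 1.29, 1.40 and 8.71 CPM in SmadNes SF3, SF4 and SF5_6, against 4.66, 2.23 and 12.2 CPM in controls. Dlx6 was near the limit of counting outside SF5_6, with 8, 3 and 107 counts in SmadNes and 24, 8 and 127 counts in controls. Gsx2, the progenitor factor, was also sparse, with 9, 4 and 84 counts in SmadNes and 17, 6 and 86 counts in controls. Both Dlx6 and Gsx2 entered the test through their counts in SF5_6, and neither passed the filter on low counts once that pool was left out. Sp9 had 2.00, 2.49 and 13.0 CPM in SmadNes, against 9.75, 3.77 and 16.2 CPM in controls, so control SF3 stood closer to the SF5_6 libraries for Sp9 than for the Dlx genes.

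The 3 remaining members divided differently. Isl1 had 1.45, 0.303 and 11.3 CPM in SmadNes SF3, SF4 and SF5_6, against 2.37, 0.446 and 20.4 CPM in controls, so nearly all of its signal lay in SF5_6. Six3 had 5.39, 1.85 and 15.5 CPM in SmadNes, against 5.50, 3.55 and 29.7 CPM in controls, with the SF3 libraries alike. Ebf1 had 11.6, 11.4 and 34.5 CPM in SmadNes, against 11.4, 12.6 and 35.7 CPM in controls, and it alone was not lower in SmadNes in every pair.

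**Figure D1:**
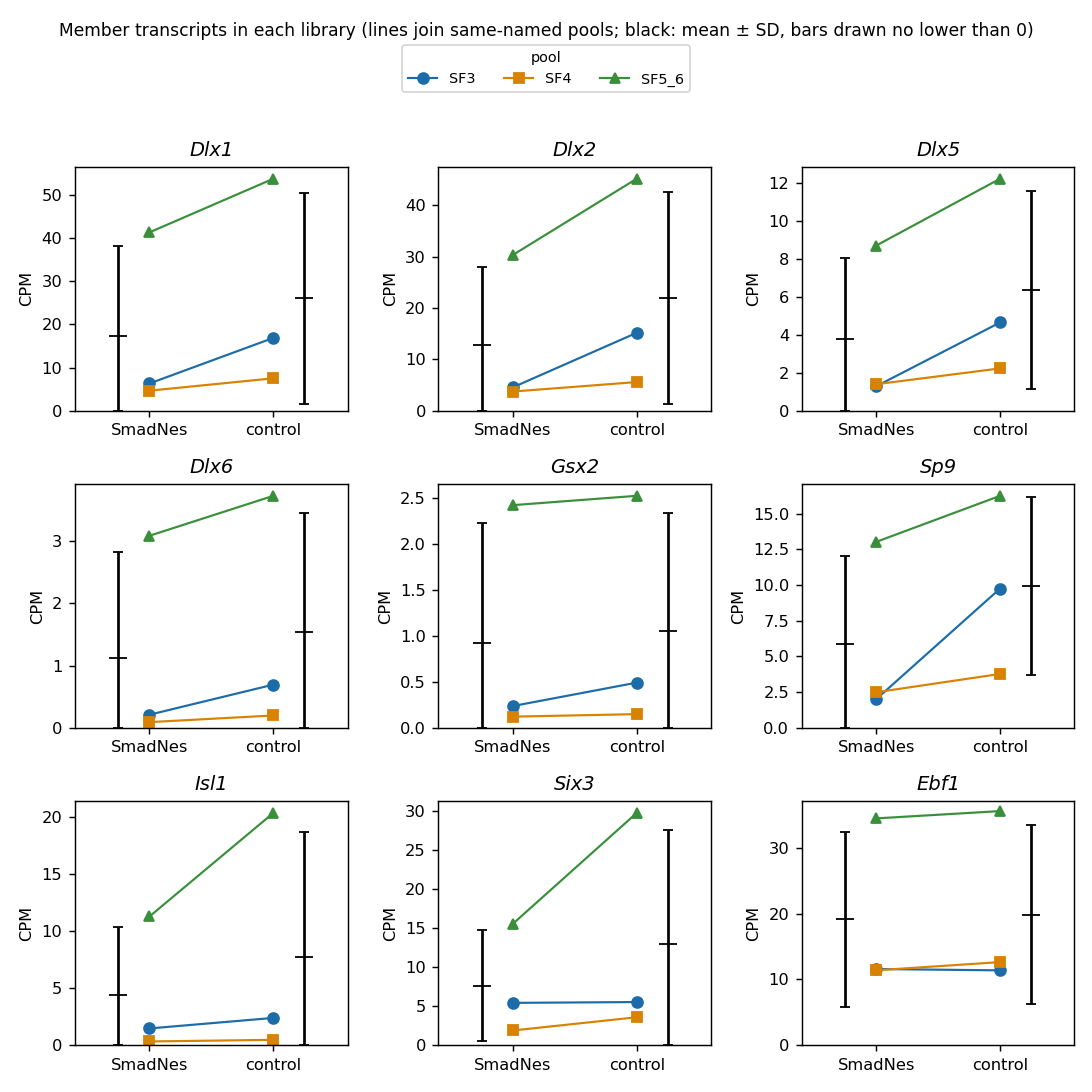
CPM of each member (vertical axis, from 0) in the SmadNes (left) and control (right) libraries, with lines joining pools of the same name and black bars for mean ± SD over 3 pools. The green SF5_6 points lie above SF3 and SF4 in every panel, for Dlx1 at 41.4 and 53.8 CPM, and most lines climb towards the control side, while those of Ebf1 are nearly flat.

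Per kilobase of merged exons, control levels were 7.70 ± 7.24 CPM for Dlx2, 4.83 ± 4.54 for Dlx1, 2.82 ± 2.31 for Dlx5, 2.37 ± 2.68 for Six3, 2.04 ± 1.40 for Ebf1, 1.97 ± 1.24 for Sp9, 1.95 ± 2.78 for Isl1, 0.649 ± 0.805 for Dlx6 and 0.634 ± 0.772 for Gsx2 (SD, n = 3). In SmadNes libraries Dlx2 was again highest, at 4.51 ± 5.3 CPM per kilobase, and Dlx6 lowest, at 0.476 ± 0.714. Neighbours in this order never differed by more than their spread between pools, which was about as large as the mean for most members.

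Without regard to pool names, no member was called between genotypes. EdgeR's quasi-likelihood test called 0 of the 9 members at an adjusted p below 0.05, and it called 0% of all 16869 genes tested. At an unadjusted p below 0.05 it found 0 members and 177 genes in all. The log2 difference, SmadNes minus control, was -0.58 for Dlx1 (standard error, SE, 1.03), -0.77 for Dlx2 (SE 1.03), -0.75 for Dlx5 (SE 0.93) and -0.76 for Sp9 (SE 0.84). It was -0.44 for Dlx6 (SE 1.42), -0.18 for Gsx2 (SE 1.31), -0.83 for Isl1 (SE 1.55), -0.77 for Six3 (SE 1.01) and -0.05 for Ebf1 (SE 0.62). Each SE was larger than its difference, and the adjusted p was 0.999987 for each. The median over the members was -0.75, beside -0.0004 over all genes tested. In bulk samples such as these, fewer cells of a type and less RNA per cell cannot be told apart.

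Within pairs of the same pool name, 8 of the 9 members were lower in SmadNes in all 3 pairs, Ebf1 being the exception, where 14.3% of all tested genes were lower in all 3. Several of these differences lay within counting error, in all 3 pairs for Gsx2 and in some pairs for Dlx6, Isl1 and Six3, as given below. The members are not independent of each other, and within pairs their median log2 difference was -1.42 for SF3, -0.60 for SF4 and -0.38 for SF5_6. With the pool name as a replicate block the SEs became smaller, 0.16 for Dlx1 (log2 difference -0.77) and 0.13 for Isl1 (-0.79). EdgeR with this block still called 0 of the 9 members, with 0.0237% of all genes called. Its adjusted p was 0.244 for Isl1, 0.381 for Dlx1 and for Dlx2, 0.435 for Dlx5, 0.478 for Six3, 0.612 for Sp9, 0.801 for Dlx6, 0.902 for Gsx2 and 0.918 for Ebf1.

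The size of the difference was not the same in the 3 pairs. For Dlx1 the ratio of SmadNes to control was 0.374 in SF3 (95% exact interval of counting 0.320 to 0.435), 0.618 in SF4 (0.505 to 0.753) and 0.769 in SF5_6 (0.717 to 0.824). For Sp9 it was 0.205 in SF3 (0.158 to 0.264), 0.660 in SF4 (0.498 to 0.869) and 0.801 in SF5_6 (0.706 to 0.909). The SF3 interval lay below the others for both genes, as it also did for Dlx2 (ratios of 0.300, 0.669 and 0.671 in the order SF3, SF4, SF5_6) and Dlx5 (0.277, 0.625 and 0.712 in that order). Six3 showed another order, with 0.981 in SF3 (0.801 to 1.2), 0.522 in SF4 (0.380 to 0.709) and 0.522 in SF5_6 (0.469 to 0.580). The Isl1 ratios were 0.610, 0.680 and 0.554 in the order SF3, SF4, SF5_6. Ebf1 ratios lay between 0.901 and 1.02 with intervals that held 1. The Gsx2 ratios were 0.481, 0.815 and 0.960 in the order SF3, SF4, SF5_6, also with intervals that held 1. The same was true of Dlx6 in SF4 (0.0784 to 1.91) and SF5_6 (0.634 to 1.08), and of Isl1 in SF4 (0.280 to 1.55). These intervals cover counting error only and compare single libraries, and whether the genotype difference depends on the pool could not be tested with 1 library per genotype and pool.

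**Figure D2:**
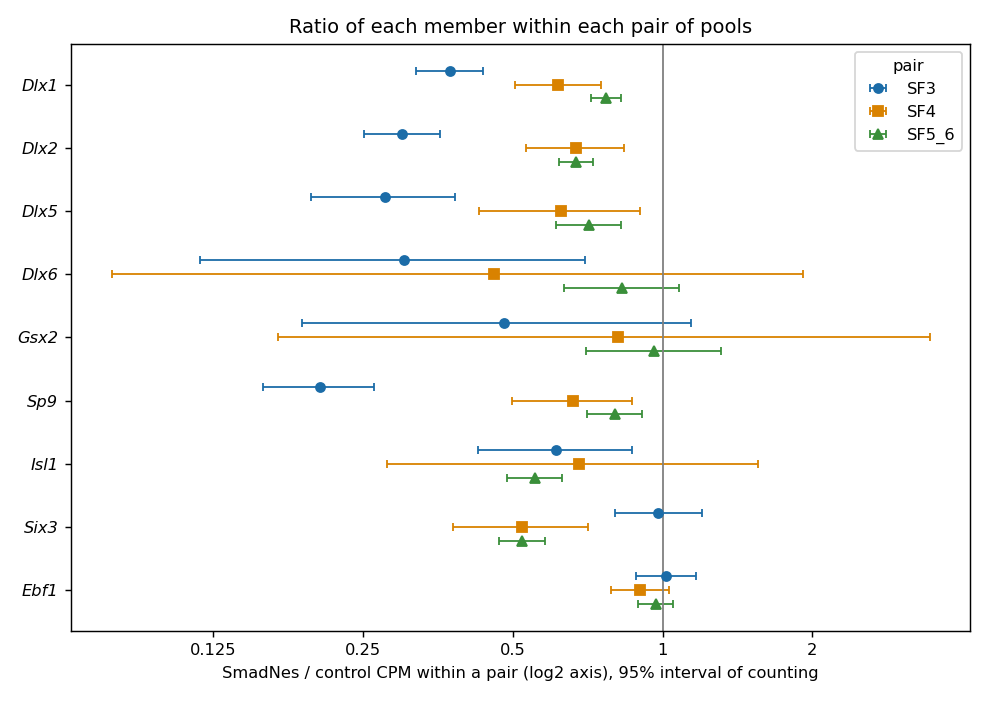
Ratio of SmadNes to control CPM within each pair (horizontal axis, log2 scale) for each member, with the exact 95% interval of counting. Dlx1, Dlx2, Dlx5 and Sp9 have their lowest ratio in SF3 (0.205 for Sp9), Six3 sits at 0.981 in SF3 and 0.522 in the other pairs, and Ebf1 stays near 1.

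Leaving out 1 pool name from both groups changed which members passed edgeR's test with the block. Without SF5_6, 4 of 7 members tested fell in SmadNes, beside 0.52% of all genes called lower. These were Dlx1 (log2 difference -1.09, SE 0.15, adjusted p = 8e-05), Dlx2 (-1.21, SE 0.19, adjusted p = 0.000327), Sp9 (-1.48, SE 0.25, adjusted p = 0.0012) and Dlx5 (-1.30, SE 0.26, adjusted p = 0.00874), each lower in both remaining pairs. Without SF3, Six3 alone of the 9 fell (log2 difference -0.93, SE 0.10, adjusted p = 0.0441), beside 0.0469% of genes called lower. Without SF4, Isl1 alone fell (-0.81, SE 0.14, adjusted p = 0.0322), beside 0.0875%. Each of these fits has 2 pairs and borrows its estimate of spread from all genes, and none of these calls was made when all 3 pairs were used.

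The largest differences among members lay between pools, not genotypes. EdgeR's test of the pool names, with genotype as a term, called 28.8% of all genes and each of the 7 members that also pass the low-count filter without SF5_6. It called Dlx6 and Gsx2 as well, but these passed the filter through the SF5_6 counts, the pool in which they are high, so their calls carry no weight. The mean of the SF5_6 libraries was 13.9 times the mean of the SF3 and SF4 libraries for Isl1 (adjusted p = 2.86e-06). As a description it was 11.4 times for Dlx6 and 9.91 times for Gsx2. The factor was 5.56 for Six3 (3.79e-05), 5.38 for Dlx1 (3.11e-05), 5.20 for Dlx2 (7.56e-05) and 4.38 for Dlx5 (0.000403). Sp9, at 3.25 times (0.00395), and Ebf1, at 2.99 times (6.48e-06), differed least. Across all genes tested the median factor was 1.002, and 3.85% of genes had a factor of 2 or more. The difference was present within each genotype, since both SF5_6 libraries exceeded the 4 others for each member. What distinguishes the pools is given only as a name, so dissection, litter and sort cannot be told apart here.

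Ratios between members within a library do not depend on scaling. Dlx2 had 0.721, 0.804 and 0.734 counts per Dlx1 count in SmadNes SF3, SF4 and SF5_6, against 0.899, 0.743 and 0.840 in controls, so this neighbouring pair moved nearly in step. Isl1 counts per Dlx1 count were 0.229, 0.0654 and 0.273 in SmadNes, against 0.140, 0.0594 and 0.379 in controls. The lowest values, in SF4, and the highest, in SF5_6, were the same pools in both genotypes. Six3 counts per Dlx1 count were 0.854, 0.399 and 0.375 in SmadNes, against 0.325, 0.472 and 0.553 in controls. SmadNes SF3 stood apart there, with an interval of 0.705 to 1.03 above those of the other libraries. Sp9 counts per Dlx1 count were 0.317, 0.536 and 0.315 in SmadNes, against 0.577, 0.502 and 0.302 in controls.

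Of the noncoding partners of the Dlx genes, Dlx1as departed from its neighbour and Dlx6os1 kept near Dlx5. Dlx1as had 1.68, 1.43 and 3.40 CPM in SmadNes SF3, SF4 and SF5_6, against 4.02, 2.31 and 4.52 CPM in controls. Its counts per Dlx1 count were 0.267, 0.307 and 0.0823 in SmadNes and 0.238, 0.307 and 0.0840 in controls, so Dlx1as lagged behind Dlx1 in the SF5_6 pools of both genotypes, with intervals apart from the other libraries. Dlx6os1, the Evf2 transcript known to act on the Dlx5 and Dlx6 enhancers, had 5.50, 5.28 and 48.6 CPM in SmadNes, against 21.8, 8.36 and 52.0 CPM in controls. It kept between 3.74 and 5.57 counts per Dlx5 count in all 6 libraries. Dlx6 counts per Dlx5 count were 0.163, 0.0652 and 0.354 in SmadNes, against 0.149, 0.0889 and 0.305 in controls. Outside SF5_6 these values rest on 3 to 24 Dlx6 counts. The interval of SmadNes SF3 (0.0668 to 0.348) overlapped that of SmadNes SF5_6 (0.281 to 0.443). Since Dlx6 passed the low-count filter through SF5_6, this ratio lends no weight to a pool difference. Without SF5_6, edgeR with the block placed Dlx6os1 (adjusted p = 5.55e-05) and Dlx1as (adjusted p = 0.0362) lower in SmadNes, but not with all pairs (0.682 and 0.433). The Dlx6os2 transcript had 3, 3 and 21 counts in SmadNes and 7, 5 and 39 counts in controls. Dlx3 and Dlx4, the third Dlx pair, which works mainly outside the brain, had at most 11 counts in any library.

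**Figure D3:**
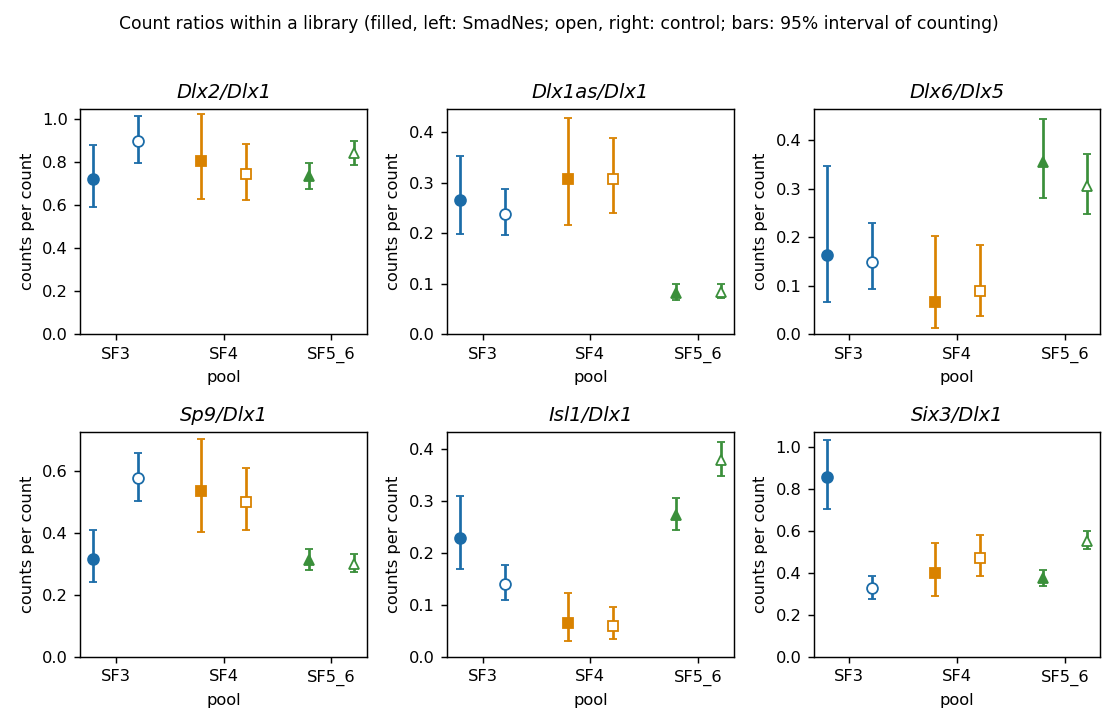
Counts of the first gene per count of the second within each library (vertical axis, from 0), with SmadNes filled on the left and control open on the right in each pool, and bars for the exact 95% interval of counting. Dlx1as per Dlx1 lies at 0.0823 and 0.0840 in SF5_6 and between 0.238 and 0.307 elsewhere, and Six3 per Dlx1 is highest, at 0.854, in SmadNes SF3.

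Besides Dlx1as and Dlx6os1, given above, the tested genes within 100000 bases of the Dlx pairs, a window chosen after the values were seen, were Hat1 and Metap1d beside Dlx1 and Dlx2, and Sdhaf3 beside Dlx5 and Dlx6. Their log2 differences were 0.04 for Hat1 (SE 0.17), -0.03 for Metap1d (SE 0.11) and 0.01 for Sdhaf3 (SE 0.14), and none was called between genotypes. Hat1 was higher in the SF5_6 libraries, at 59.7 CPM in SmadNes and 59.4 CPM in the control, than in the other pools, where it lay between 42.2 and 46.4 CPM. Six3os1, a noncoding gene overlapping Six3 and also picked after its values were seen, had 16.9, 5.98 and 39.4 CPM in SmadNes SF3, SF4 and SF5_6, against 15.6, 10.9 and 67.6 CPM in controls. It kept between 2.27 and 3.23 counts per Six3 count.

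Among further genes of the LGE and striatum, edgeR called 0 of 14 tested of 17 listed, with a median log2 difference of -0.07. Of the 14, 2 were lower in all 3 pairs, beside 14.3% of all tested genes. Without SF5_6, edgeR with the block called 1 of the 14, Zfp503, higher in SmadNes (log2 difference 0.42, adjusted p = 0.0212). That fit called 0.361% of all genes higher, and with all 3 pairs the adjusted p of Zfp503 was 0.970. Drd1, the dopamine receptor of striatal neurons, had 42, 19 and 9 counts in SmadNes SF3, SF4 and SF5_6 and 53, 30 and 10 counts in controls, so it was lowest in the pool where the members were highest. The list did not move in one direction between pools, where 10 of the 14 were called, beside 28.8% of all genes. The SF5_6 mean was 3.30 times that of SF3 and SF4 for Pbx3 and 2.32 times for Zfp503. It was 0.683 times for Meis2 and 0.602 times for Bcl11b. These 4 genes were named after their values were seen. The summed level of this list, 45.0% of which is Bcl11b, a gene that cortical neurons also use, was 786 to 989.5 CPM in SmadNes and 813 to 1085 CPM in controls.

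Targets of the Dlx factors and genes of GABA synthesis split into members that followed the Dlx genes and members that did not. EdgeR called 0 of the 9 tested of 10 listed, and the median log2 difference was -0.25. In all 3 pairs 5 were lower and 1 was higher, beside 14.3% and 13.8% of all tested genes. Gad1, which makes GABA, had 3.45, 2.94 and 13.4 CPM in SmadNes SF3, SF4 and SF5_6, against 10.1, 4.12 and 15.6 CPM in controls. Slc32a1, the vesicular GABA transporter, had 1.29, 1.58 and 5.71 CPM in SmadNes, against 4.71, 2.08 and 8.16 CPM in controls. Cxcr4, a chemokine receptor of migrating interneurons that Cajal-Retzius cells also use, had 45.1, 45.8 and 46.2 CPM in SmadNes, against 33.03, 37.6 and 46.0 CPM in controls, and was higher in all 3 pairs (log2 difference 0.23, SE 0.12). Without SF5_6, edgeR with the block called 4 of the 9 lower in SmadNes and 1 higher, beside 0.52% of all genes called lower and 0.361% called higher. Those lower were Gad2, a second GABA-making enzyme (log2 difference -1.11, adjusted p = 0.000134), Gad1 (-1.07, 0.00471), Erbb4, the neuregulin receptor of migrating interneurons (-0.40, 0.0193), and Slc32a1 (-1.17, 0.0313). Cxcr4 was the higher one (0.37, 0.00655), and Gad2 and Erbb4 were named after their values were seen. With all 3 pairs and the block, none of the 9 was called.

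Genes of the medial ganglionic eminence, the neighbouring source of cortical interneurons, did not all follow the pools in one way. Of the medial ganglionic eminence list, 0 of 8 tested were called, and the median log2 difference was -0.79. In all 3 pairs 4 were lower and 1 was higher, beside 14.3% and 13.8% of all tested genes. Lhx6, the factor of medial interneurons, had 3.76, 4.28 and 4.65 CPM in SmadNes SF3, SF4 and SF5_6, against 12.1, 5.04 and 4.32 CPM in controls, so it was highest in control SF3 and not in SF5_6. Sst, which encodes somatostatin, had 1.66, 2.58 and 1.21 CPM in SmadNes, against 6.07, 3.25 and 2.38 CPM in controls, and its unadjusted p of 0.0416 was the only one below 0.05 among all members and lists. Nkx2-1, the patterning factor of this eminence and of the hypothalamus, named after its values were seen, had 1.39, 0.243 and 11.7 CPM in SmadNes, against 5.18, 0.397 and 27.0 CPM in controls, and was highest in SF5_6 like the members. Without SF5_6, edgeR with the block called 3 of 6 tested genes of this list lower in SmadNes, beside 0.52% of all genes called lower. These were Nkx2-1 (log2 difference -1.64, adjusted p = 0.00612), Lhx6 (-0.999, 0.0153) and Sst (-1.10, 0.0279). Without SF4 it called Nkx2-1 (adjusted p = 0.00188) and Sst (0.0313) lower, beside 0.0875% of all genes. With all 3 pairs none was called, the adjusted p of Nkx2-1 being 0.0529. Npy, a neuropeptide of the same lineage, averaged 0.415 CPM in SmadNes and 0.739 CPM in controls. Of the caudal eminence list 0 of 5 tested were called (median log2 difference 0.07), with Nr2f2 at 101 and 117 CPM, Prox1 at 47.1 and 43.8 CPM and Htr3a at 4.07 and 3.66 CPM in SmadNes and control libraries. Without SF5_6, edgeR with the block called 1 of these 5, Prox1, higher in SmadNes (log2 difference 0.29, adjusted p = 0.0420). That fit called 0.361% of all genes higher, and with all 3 pairs the adjusted p of Prox1 was 0.885.

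Markers of the hypothalamus and eye, other places in which Isl1 or Six3 are used, had their highest sum in SF5_6, as these genes did. The list of hypothalamus and eye genes summed to 11.7, 7.86 and 29.0 CPM in SmadNes SF3, SF4 and SF5_6, against 11.0, 8.31 and 46.6 CPM in controls. Its defining genes Otp (2.68 CPM in SmadNes SF5_6 and 11.3 CPM in control SF5_6), Nkx2-2 (1.59 and 1.91 CPM) and Six6 (0.433 and 3.49 CPM), named after their values were seen, were at or below 0.202 CPM in each SF3 and SF4 library. Vax1, a factor of the ventral forebrain and optic stalk, had 31, 0 and 67 counts in SmadNes and 34, 10 and 171 counts in controls, while Foxd1 averaged 4.47 and 4.96 CPM and Mitf 5.87 and 6.12 CPM in SmadNes and control libraries. Of this list 3 of 11 were tested, 0 were called between genotypes (median log2 difference -0.15), and 3 were called between pools, beside 28.8% of all genes. Without SF4, edgeR with the block called 1 of 8 tested, Otp, lower in SmadNes (log2 difference -1.96, adjusted p = 0.0322). That fit called 0.0875% of all genes lower. Otp passed the low-count filter there through SF5_6, with at most 2 counts in an SF3 library, and was not tested with all 3 pairs. The part of such cells in the levels of Isl1 and Six3 was not tested.

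The 6 genes of Cajal-Retzius cells, the early neurons of the cortical surface, and of the Ebf family were mostly higher in SmadNes. EdgeR called 0 of 6 between genotypes, 4 were higher in all 3 pairs, as were 13.8% of all tested genes, and the median log2 difference was 0.19. Reln had 1170, 1009 and 669 CPM in SmadNes SF3, SF4 and SF5_6, against 881, 799 and 567 CPM in controls. Lhx1 averaged 36.4 CPM in SmadNes and 30.4 CPM in controls, and Trp73 131 and 117 CPM. Without SF5_6, edgeR with the block called 4 of the 6 higher in SmadNes, beside 0.361% of all genes called higher. These were Reln, Trp73, Lhx1 and Ebf3, the last named after its values were seen. Without SF4, edgeR with the block called 1 of the 6, Reln, higher in SmadNes (log2 difference 0.32, adjusted p = 0.0453). That fit called 33 of 17137 genes higher, and with all 3 pairs the adjusted p of Reln was 0.0647. Sensory neuron genes summed to 8.07 to 12.8 CPM in SmadNes and 8.33 to 13.8 CPM in controls, with 0 of 6 called, and their sum was highest in SF5_6, with Scn9a making up 36.3% of it over all libraries. Prph of the same list, named after its values were seen, ran the other way, with 83, 104 and 16 counts in SmadNes SF3, SF4 and SF5_6 and 86, 119 and 23 counts in controls. Pou4f1 of that list had 47, 50 and 106 counts in SmadNes and 41, 61 and 79 counts in controls, and Scn9a averaged 3.26 CPM in SmadNes and 3.93 CPM in controls.

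Genes of the dorsal cortex differed little between genotypes, with 0 of 10 called and a median log2 difference of 0.03. Their sum was lowest in SF5_6, at 2597 CPM in SmadNes and 2630 CPM in the control, against 3434 to 3717 CPM and 3496 to 3515 CPM in the other pools. Not every gene of the list followed this sum. The SF5_6 mean was 0.378 times that of SF3 and SF4 for Neurod6, 0.617 times for Eomes and 0.729 times for Emx1. It was 0.952 times for Pax6 and 1.31 times for Emx2. Dmrta2 averaged 141, 164 and 153 CPM in SF3, SF4 and SF5_6 over both genotypes. Neurod6, Eomes, Emx1, Pax6 and Dmrta2 were named after their values were seen. Emx2, a dorsal patterning factor, was at 123, 145 and 168 CPM in SmadNes SF3, SF4 and SF5_6 and at 95.9, 127 and 154 CPM in controls, Tbr1 averaged 540 and 565 CPM, and Lhx2 817 and 764 CPM. Without SF5_6, edgeR with the block called 1 of the 10, Emx2, higher in SmadNes (log2 difference 0.28, adjusted p = 0.00809). That fit called 0.361% of all genes higher, and with all 3 pairs the adjusted p of Emx2 was 0.381. Of radial glia genes 0 of 9 were called (median 0.03), with Nes at 479 and 442 CPM, Slc1a3 at 68.5 and 70.2 CPM and Hes1 at 31.8 and 28.7 CPM in SmadNes and control libraries. Of general neuronal genes 0 of 9 were called (median -0.09), with Tubb3 at 848 and 903 CPM, Elavl3 at 519 and 564 CPM and Nefm at 21.05 and 23.6 CPM, in SmadNes and control libraries. These were the 3 of the 9 that were lower in SmadNes in all 3 pairs, beside 14.3% of all tested genes, and none was higher in all 3.

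Genes of cells from outside the nervous system also differed between pools. Head mesenchyme genes, a further site of Dlx5, Dlx6 and Ebf1, summed to 677, 226 and 1017 CPM in SmadNes SF3, SF4 and SF5_6, against 490, 355 and 818 CPM in controls, with 0 of 7 called. Col3a1 averaged 353 CPM in SmadNes and 283 CPM in controls, Prrx1 36.9 and 34.0 CPM, and Twist1 2.15 and 1.89 CPM. Without SF4, edgeR with the block called 1 of the 7, Col3a1, higher in SmadNes (log2 difference 0.51, adjusted p = 0.00188). That fit called 33 of 17137 genes higher. The SF4 pair went the other way, with Col3a1 at 98.7 CPM in SmadNes and 166 CPM in the control. With all 3 pairs its adjusted p was 0.947. Blood and vessel genes summed to 218, 77.9 and 529 CPM in SmadNes, against 207, 70.7 and 891 CPM in controls, with 0 of 6 called. Hba-x averaged 30.0 and 46.7 CPM, Hba-a1 95.3 and 139.6 CPM and Kdr 15.8 and 14.1 CPM. The globin gene Hbb-y made up 47.5% of the sum. The vessel genes did not share the high SF5_6 level as a set. Over both genotypes Kdr averaged 13.8, 15.6 and 15.5 CPM in SF3, SF4 and SF5_6, and Cdh5 3.27, 1.17 and 3.06 CPM. Pecam1, at 1.06, 0.564 and 1.41 CPM, was highest in SF5_6. Hbb-y, Cdh5 and Pecam1 were named after their values were seen. Microglia genes summed to 55.4, 6.55 and 40.0 CPM in SmadNes, against 51.7, 7.94 and 40.3 CPM in controls, with 0 of 3 called, Csf1r at 22.6 and 21.9 CPM, Cx3cr1 at 10.6 and 10.5 CPM and Aif1 at 0.831 and 0.859 CPM. The part of these cells in the pool differences of the members was not tested.

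**Figure D4:**
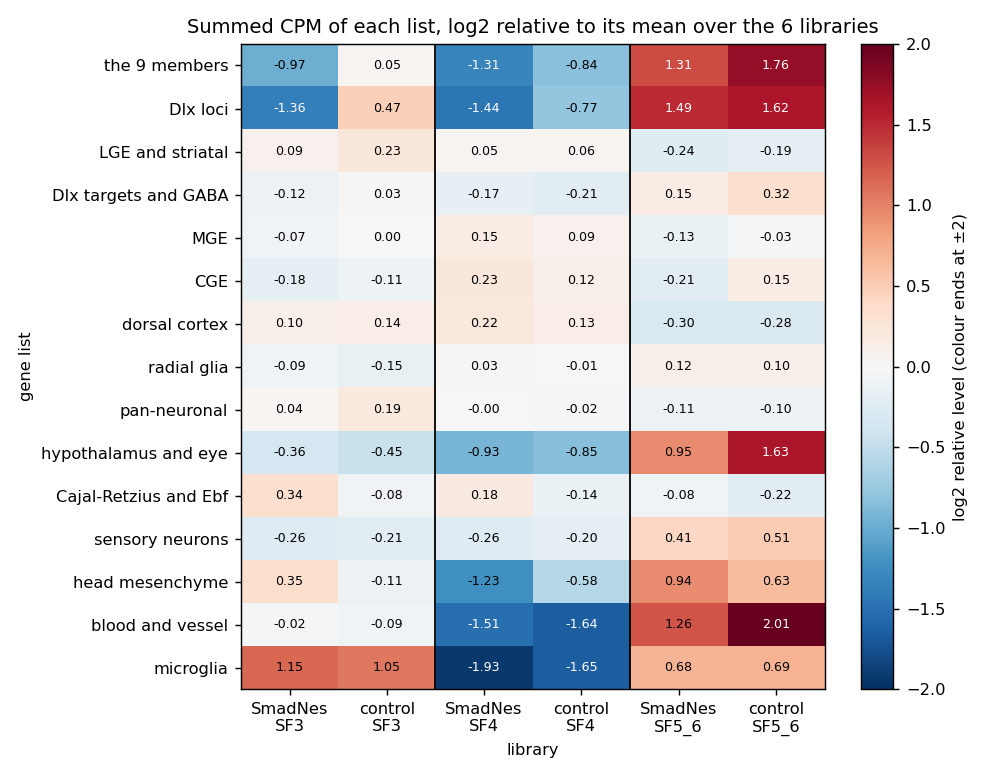
Summed CPM of the members and of each gene list in the 6 libraries, as log2 minus the mean of the list's log2 values over libraries (numbers and colour), with SmadNes left of control in each pool. The members reach 1.31 in SmadNes SF5_6 and 1.76 in control SF5_6, and the hypothalamus and eye, mesenchyme and blood lists are also highest there, while the dorsal cortex list is lowest there.

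The 8 genes whose levels followed the mean standardised profile of the members most closely over the 6 libraries were Slc18a2, Calb1, Trib1, Gabra3, Slc12a5, Gm37928, Rem2 and Pctp, with Pearson's r between 0.993 and 0.997. The libraries share pools, so this is a description of 6 values that are not independent. Slc18a2, the vesicular transporter of monoamines, had 0.447, 0.212 and 9.23 CPM in SmadNes SF3, SF4 and SF5_6, against 1.85, 0.446 and 10.2 CPM in controls. Calb1, a calcium-binding protein of neurons, had 0.789, 0.455 and 3.15 CPM in SmadNes, against 1.24, 0.670 and 3.96 CPM in controls. Slc12a5, the chloride transporter of maturing neurons, averaged 4.74 CPM in SmadNes and 5.67 CPM in controls, and Gabra3, a subunit of the GABA receptor, 6.25 and 6.80 CPM. Trib1 shows that likeness is no measure of size, since it stayed between 18.8 and 21.1 CPM. Of the members, Dlx6 (r = 0.997) and Dlx1 (0.996) lay closest to the common profile, and Ebf1 (0.936) and Sp9 (0.939) farthest. Each member is part of that profile, which raises its r, so these values cannot be set beside those of the 8 genes.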

How the data were processed

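Cells were sorted for Prominin1 after dissection of the forebrain, and stranded paired-end mRNA libraries were sequenced, per the labels' protocols. The authors used STAR 2.5.3a for alignment to GRCm38, then RSEM 1.3.0 in its stranded setting with GENCODE M15, per the labels' protocols. DESeq2 1.18 appears in the submitters' processing notes. The authors' deposited file gives expected counts per gene as unscaled whole numbers, and no source used here says how they became whole. Positions and exon lengths are from GENCODE M21 on the same build. Dlx6os1 has a second ID with fewer counts, which was not used.

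All genes were tested with edgeR 4.0.16 in R 4.3.3 (quasi-likelihood F test, TMM scaling, filterByExpr, genotype as the term), with Benjamini-Hochberg adjustment over the 16869 genes that passed the filter and a threshold of 0.05. Pools were tested in a fit with genotype and pool name. DESeq2 1.42.0, limma-voom (limma 3.58.1), DESeq2 size factors, no filter, the replicate block and left-out libraries were the alternatives. The labels speak of pairs, and deviations from the group means correlated at 0.493, 0.697 and 0.724 between libraries of one pool name, so the names pair the samples. Without the block, the p-values set the genotype difference against the spread between pools. With the block, and in the pool test, they rest on the spread left after genotype and pool name. A count of 0 allows up to 3 counts, at most 0.0910 CPM, and intervals cover counting error only.

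The members and gene lists were chosen with earlier results of these data known. Named were the members, the targeted genes, Prom1, the Dlx loci, up to 3 genes per list by smallest unadjusted p, and the 8 genes of most similar profile (at least 1 CPM, Pearson's r on log2 of CPM plus 0.5). Some genes that this rule names are not reported here. The fits were tested on simulated data.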

Additional observations from a re-analysis of the deposited data

How the results depend on the processing

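Every alternative on all 6 libraries, namely DESeq2 size factors, no filter, DESeq2, limma-voom and the replicate block in all 3 tools, called 0 of the 9 members between genotypes, and the paired fits left each member's difference negative (edgeR with the replicate block gave a median log2 difference of -0.77 over the members). The replicate block changed no call of a member on all pairs. Leaving out 1 library without the block also called 0 members, but the median log2 difference ranged from -2.25 (without SmadNes SF5_6) to 0.67 (without control SF5_6), since such a fit keeps an unpaired pool. The single differences ranged from -2.25 to 0.51 for Dlx1, -2.40 to 0.31 for Dlx2, -2.24 to 0.14 for Dlx5, -3.29 to 1.35 for Dlx6, -2.51 to 1.54 for Gsx2, -2.14 to -0.22 for Sp9, -3.11 to 1.63 for Isl1, -1.83 to 0.74 for Six3 and -0.79 to 0.67 for Ebf1. With the block and 1 pool name left out of both groups, 1 member was called without SF3, 1 without SF4 and 4 without SF5_6. Between pools, 9 members were called under every alternative run, but Dlx6 and Gsx2 passed the low-count filter through their SF5_6 counts, so that number speaks for the other 7 alone. Over all genes, the pool test called 4864 genes with edgeR and 3161 with DESeq2, and the genotype test 0, 7 and 1 with edgeR, DESeq2 and limma-voom, and 4, 13 and 8 with the block. Depth limits Dlx6 and Gsx2, which had at most 24 counts in any SF3 or SF4 library.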
